A study of Mus musculus with 6 samples.

Results

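The purinergic genes of microglia were followed here as a list of 10 of the 24411 genes in the count tables, chosen by symbol. They are the nucleotide receptors P2ry12, P2ry13, P2ry6 and P2ry2, the ATP-gated channels P2rx4 and P2rx7, the ectonucleotidase Entpd1, and the adenosine receptors Adora2a, Adora2b and Adora3. All 10 symbols were present in the tables. The cells were primary microglia from the pooled brains of 12 ICR mice aged 3 days, shaken off mixed glial cultures, and more than 92% carried CD11b per the labels' protocols. All 6 RNA-seq libraries came from cells exposed to FTY720 (fingolimod, a sphingosine analogue) at 1 µM for 4 h, 3 of them with FTY720 alone and 3 in which lipopolysaccharide (LPS), a component of bacterial membranes, was also given at 10 ng/ml. The comparison therefore asks how cells given FTY720 and LPS differed from cells given FTY720 alone. The labels state 4 h for the combination and no order of the agents, and no library without FTY720 was analysed here. The sources used here do not say whether replicates were separate cultures, so p-values measure the spread between these RNA samples, which may be technical.

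ATP and ADP leak from damaged cells and act on microglia through P2X receptors, which are ion channels opened by ATP, and P2Y receptors, which are G protein-coupled. Ectonucleotidases on the cell surface strip the phosphates: Entpd1 (CD39) turns ATP and ADP into AMP, Nt5e (CD73) turns AMP into adenosine, and adenosine then acts on its own G protein-coupled receptors. In microglia P2ry12 is known for guiding processes towards injury, P2ry6 for phagocytosis, and P2rx7 for triggering the inflammasome when ATP is abundant.

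With LPS added, P2rx7 fell 4.08-fold, while P2rx4, the channel gene beside it on the chromosome, was 1.13-fold lower and did not pass the test. P2ry12 was 1.67-fold higher, a call that rested on few reads and did not hold under most other settings. The adenosine receptors Adora2a and Adora2b went from 1 to 24 and from 13 to 35 reads, too few for the low-count filter. Of the 7 genes that had enough reads to be tested, 1 was called higher and 1 lower (adjusted p under 0.05), and 5 were not called. Of all 10124 genes tested, 23.3% were called higher and 22.7% lower. The groups did not overlap in 4 of the 7 (P2ry12, P2ry6, P2rx4 and P2rx7), against 54% of all tested genes. The count of calls among the listed genes was thus no larger a share than the background.

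The sequences before the start sites of P2rx7, P2rx4 and P2ry12 are shown because the first 2 genes are neighbours whose levels moved apart and the third is the listed gene that was called higher. They are the 250 bases upstream of the RefSeq start (GRCm38.p6, 5′ to 3′ on the gene's own strand), at chr5:122643677-122643926 on the plus strand, chr5:122707294-122707543 on the plus strand and chr3:59262986-59263235 on the minus strand. Capitals mark a match to a motif searched, here an AP-1 match in the P2rx7 window. The RefSeq start of P2rx7 lies slightly downstream of the GENCODE one. That of P2ry12 differs by more and lies upstream of the GENCODE start at 59262871.
P2rx7: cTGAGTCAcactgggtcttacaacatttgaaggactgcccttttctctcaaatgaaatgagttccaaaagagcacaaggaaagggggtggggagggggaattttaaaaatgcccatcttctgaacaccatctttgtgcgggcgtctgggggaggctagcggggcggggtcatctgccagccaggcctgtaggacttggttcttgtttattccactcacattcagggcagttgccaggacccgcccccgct
P2rx4: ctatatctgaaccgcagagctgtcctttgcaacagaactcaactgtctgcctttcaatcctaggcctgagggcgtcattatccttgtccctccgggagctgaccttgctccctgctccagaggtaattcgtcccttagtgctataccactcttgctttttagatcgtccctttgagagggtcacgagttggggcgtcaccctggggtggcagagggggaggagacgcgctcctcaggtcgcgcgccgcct
P2ry12: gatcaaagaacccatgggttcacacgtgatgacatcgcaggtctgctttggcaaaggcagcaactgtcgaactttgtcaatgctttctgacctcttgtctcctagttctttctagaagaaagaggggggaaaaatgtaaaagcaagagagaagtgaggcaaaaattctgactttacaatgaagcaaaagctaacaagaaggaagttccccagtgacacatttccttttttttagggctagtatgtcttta

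Motifs were searched on both strands in the 250 bases before every start in the same table, 32841 windows in all, of which 8 of the 10 listed genes had at least 1. The AP-1 motif TGANTCA lay in the P2rx7 window, from the second base of the sequence shown, and in the Adora3 window; 6.75% of all windows held it. The PU.1 motif GAGGAA lay in the windows of P2ry13 and Adora3 and in 1 of 2 Entpd1 windows, and in neither the P2rx4 nor the P2ry12 window. It lay in 23.3% of all windows. The percentages are per window, whereas a listed gene was counted if any of its windows matched, and P2rx7, P2ry2 and Entpd1 had 2 each. The NF-kB motif, searched as a single consensus and found in 3.9% of windows, the interferon response element GAAANNGAA, in 7.13%, and the cyclic AMP response element TGACGTCA, in 1.55%, matched in 0 of the 8 genes. A match is no evidence of a bound site. A missing match says only that the pattern as searched is not in the window, and looser forms of the NF-kB motif were not searched. P2rx7 also had a second annotated start, whose window held no match. GC content was 53.6% for the P2rx7 window shown, 57.2% for P2rx4 and 41.6% for P2ry12.

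The libraries held 2431775 to 3454647 gene reads, of which 28.8% to 59.0% fell on Rn45s, Lars2 and Mir6236, rows that collect ribosomal RNA. Levels below are CPM, the reads of a gene relative to a library size scaled with TMM factors, and 1 read is worth 0.235 to 0.501 CPM. FTY720 replicate 3 stood apart from the other FTY720 libraries on the second principal component (-22.4 against 6.49 and 15.2, 7.37% of the variance), and it had the lowest ribosomal share. FTY720 with LPS replicate 3 stood apart from its group on the same component (15.96 against -7.99 and -7.3). The receptor gene Csf1r (281 CPM with FTY720, 248 with LPS) and Itgam, which encodes CD11b (106 and 185 CPM), were both expressed. Both are on a list of microglia and macrophage markers, which does not tell these cell types apart. The summed level of 11 microglia and macrophage markers was 1970 to 2150 CPM with FTY720 and 3010 to 3410 CPM with LPS, and 7 of the 8 tested were higher. Oligodendrocyte-lineage markers summed to 265 to 288 and 137 to 157 CPM (5 of 5 tested lower), neuron markers to 180 to 241 and 97.6 to 110 CPM (3 of 3 lower), and astrocyte markers to 94.8 to 114 and 107 to 146 CPM (2 of 7 higher, 1 lower). Monocyte and border macrophage markers summed to 69.0 to 76.1 and 109 to 137 CPM (2 of 2 higher) and endothelial markers to 3.34 to 8.01 and 10.2 to 14.5 CPM (1 of 1 higher). Fibroblast and mural markers summed to 19.3 to 41.1 and 22.8 to 44.6 CPM (0 of 4 called). Of the defining endothelial genes, Cldn5 had 0 reads with FTY720 and 2 with LPS, whereas Cdh5 had 26 and 56 and was called higher. Ccr2 of monocytes had 3 and 2 reads, whereas Mrc1 of border macrophages had 700 and 784 and was called higher. The part of these cell types in the results on the purinergic genes was not tested. In bulk RNA fewer cells of a type and less RNA per cell cannot be told apart.

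**Figure D1:**
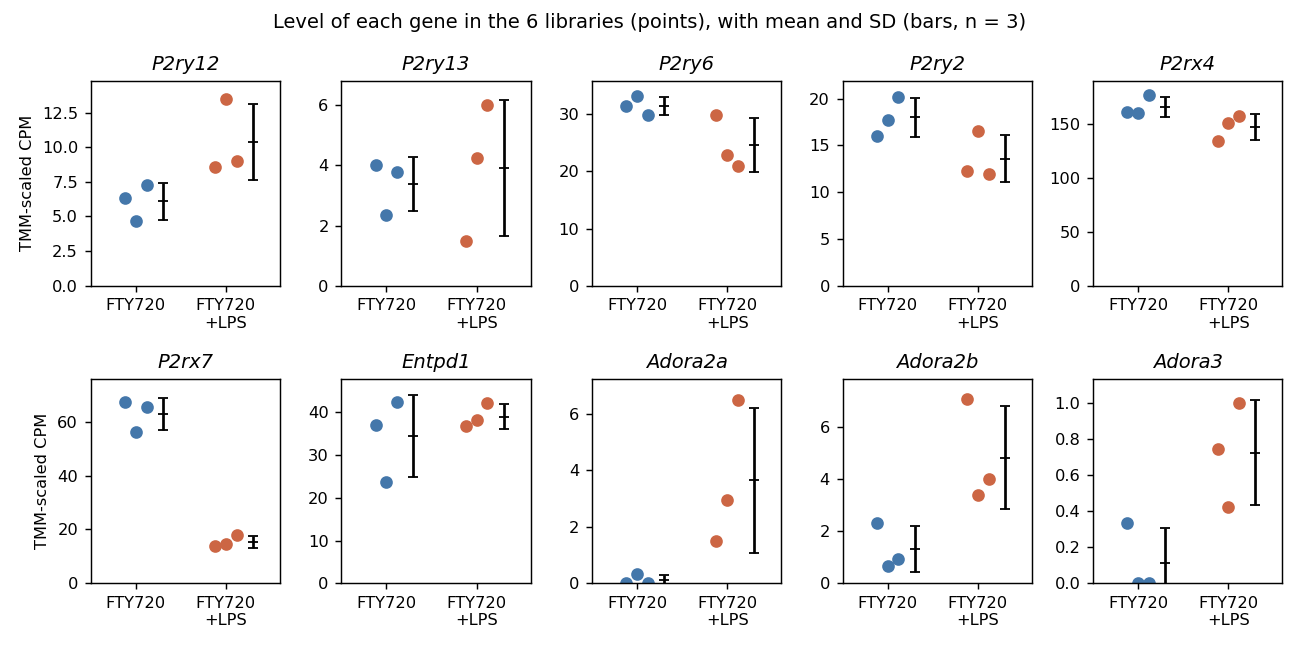
Level of the 10 listed genes in each library, in TMM-scaled CPM on linear axes that start at 0, with a separate scale for each gene. Points are the 3 libraries of each group (blue FTY720, orange FTY720 with LPS) and bars are mean ± SD, truncated at 0. The P2rx7 points sit at 56.1 to 67.1 CPM with FTY720 and at 13.8 to 18.0 CPM with LPS.

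P2rx7 encodes the channel that opens at high ATP, and it spans 122643911 to 122691432 on the plus strand of chromosome 5 (GRCm38). Its level was 67.1, 56.1 and 65.4 CPM in the FTY720 libraries (201, 168 and 278 reads) and 13.8, 14.8 and 18.0 CPM in the LPS libraries (37, 35 and 36 reads). Every LPS library lay below every FTY720 library, with 18.0 CPM the highest and 56.1 CPM the lowest on either side. The log2 fold change was -2.03 ± 0.17 (SE, n = 3 per group, edgeR quasi-likelihood adjusted p = 9.85e-10). Of the 10124 genes tested, 101 had a lower fold change. Across all 17 alternative settings the gene remained called, at -2.47 to -1.86. Without FTY720 replicate 3 it stood at -2.0 (adjusted p = 2.35e-13), and without LPS replicate 3 at -2.11 (adjusted p = 1.19e-07). Opposite-strand reads made up 1.69% of its reads, and the annotated microRNA Mir8115 shares 119 bases of its exons. The oligodendrocyte-lineage and neuron markers fell in the same libraries, while 7 of the 8 tested microglia markers were higher, with the levels given above.

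P2rx4, the ATP-gated channel known in microglia for its part in pain after nerve injury, lies 16.1 kb from P2rx7 on the same strand with no protein-coding gene between them. Its level was 161, 160 and 177 CPM with FTY720 and 134, 151 and 157 CPM with LPS. The groups did not overlap, but the margin was 157 against 160 CPM. The log2 fold change was -0.18 ± 0.11 (edgeR adjusted p = 0.207). It was called lower with upper-quartile factors (-0.31, adjusted p = 0.0241), with library sizes that leave out the ribosomal rows (-0.63, adjusted p = 3.3e-05) and after an expression trend was removed (-0.61, adjusted p = 6.26e-05). Relative to the median of all genes it stood at -0.14 as reported and under the first 2 of these settings alike.

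The ratio of P2rx4 to P2rx7 reads within a library needs no scaling factor. It was 2.40, 2.85 and 2.70 with FTY720 and 9.68, 10.2 and 8.69 with LPS, or 2.65 ± 0.228 against 9.52 ± 0.764 (SD, n = 3). The groups did not overlap, and an exact two-sided permutation test gave p = 0.1, the smallest that 3 against 3 libraries allow (0.3 after Benjamini-Hochberg adjustment over 3 such ratios). The same ratio for the neighbouring P2Y genes P2ry6 and P2ry2 was 1.77 ± 0.256 and 1.85 ± 0.527, with overlapping groups (exact permutation p = 1, adjusted p = 1). For P2ry12 and P2ry13 it was 1.84 ± 0.225 and 3.48 ± 2.14, again overlapping (exact permutation p = 0.4, adjusted p = 0.6). A ratio shows unequal change of its members, not which of them moved.

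**Figure D2:**
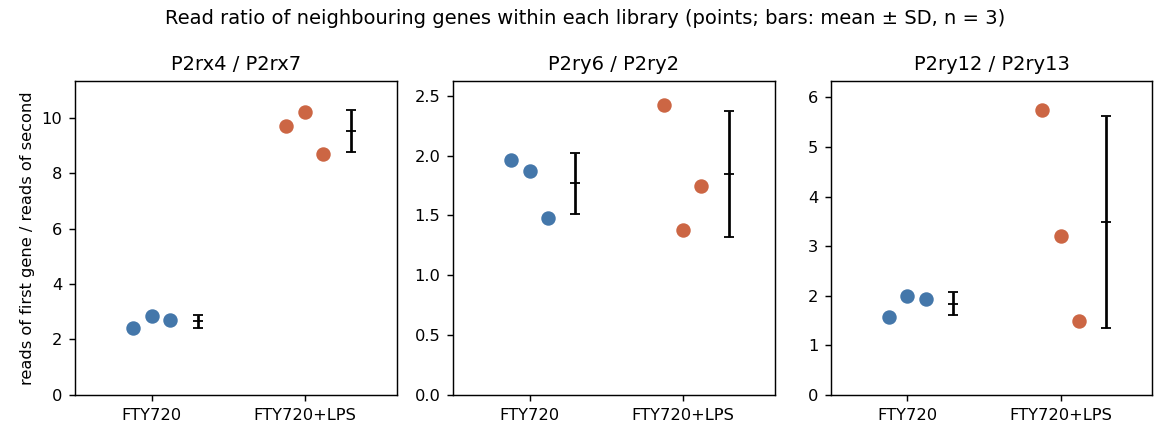
Reads of the first gene divided by reads of the second within each library, for the 3 neighbouring gene pairs, on linear axes that start at 0. Points are libraries and bars are mean ± SD (n = 3). The P2rx4 to P2rx7 ratio lies at 2.40 to 2.85 with FTY720 and 8.69 to 10.2 with LPS, whereas the groups of the other pairs overlap.

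P2ry12, the ADP receptor that is often used as a marker of resting microglia, lies on the minus strand of chromosome 3 (59216272 to 59262871), within Med12l on the other strand, with no shared exon. Its level was 6.34, 4.67 and 7.30 CPM with FTY720 (19, 14 and 31 reads) and 8.58, 13.5 and 9.01 CPM with LPS (23, 32 and 18 reads). The groups did not overlap. The log2 fold change was 0.74 ± 0.29 (edgeR adjusted p = 0.0411). The call ended under 10 of 16 alternatives, over which the value ranged from 0.30 to 1.00 (adjusted p 0.011 to 0.406). Without FTY720 replicate 1 it stood at 0.75 (adjusted p = 0.0787), without FTY720 replicate 2 at 0.62 (adjusted p = 0.117) and without LPS replicate 2 at 0.52 (adjusted p = 0.235). It remained called without FTY720 replicate 3 (0.91, adjusted p = 0.0178) and without LPS replicate 3 (0.85, adjusted p = 0.0458).

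The level of P2ry12 was also set against the microglia markers of the same library, since 7 of the 8 tested were also called higher. Per 1000 reads of the 11 markers there were 3.22, 2.34 and 3.39 P2ry12 reads with FTY720 and 2.85, 4.37 and 2.64 with LPS, so the groups overlapped. P2rx7 on the same measure was 34.0, 28.1 and 30.4 with FTY720 and 4.59, 4.78 and 5.28 with LPS, which did not overlap. Per 1000 Csf1r reads P2rx7 stood at 244 ± 99.3 and 62.7 ± 5.44 (SD, n = 3), also without overlap. For each of these separations the exact permutation p was 0.1, the smallest possible, and 0.22 after adjustment over 22 such comparisons. P2rx4, P2ry6 and P2ry2 were lower without overlap per marker read (P2rx4 81.3 ± 1.10 against 46.4 ± 2.21) and overlapped per Csf1r read (P2rx4 645 ± 270 against 595 ± 25.8). The marker total itself was 1970 to 2150 CPM with FTY720 and 3010 to 3410 CPM with LPS. A gene of unchanged CPM is therefore lower per marker read with LPS. The share of all genes that separate on either measure was not computed. Per Csf1r read FTY720 replicate 3 was the highest FTY720 library for P2rx4, P2ry6, P2ry2 and P2rx7 (P2rx4 954 against 525 and 456). In CPM P2rx4 was 177 there against 161 and 160, so Csf1r itself was lower in that library. Whether the groups of P2rx4, P2ry6 and P2ry2 separated thus depended on the reference, and neither reference was steady across the libraries. P2rx7 separated on both.

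P2ry13, the other ADP receptor, lies 5.4 kb from P2ry12 on the same strand. It had 4.00, 2.34 and 3.77 CPM with FTY720 and 1.49, 4.23 and 6.01 CPM with LPS, from 4 to 16 reads per library. The LPS libraries enclosed all FTY720 values, and the gene did not pass the test (log2 fold change 0.13 ± 0.43, edgeR adjusted p = 0.83; -0.31 to 0.60 over the alternatives, called under 0 of 16).

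P2ry6, the UDP receptor, and P2ry2, which responds to ATP and UTP, lie 21.9 kb apart on the minus strand of chromosome 7. P2ry6 stood at 31.4, 33.1 and 29.9 CPM with FTY720 and at 29.8, 22.8 and 21.0 CPM with LPS. Its groups were separated by no more than the gap from 29.8 to 29.9 CPM. P2ry2 stood at 16.0, 17.7 and 20.2 CPM with FTY720 and 12.3, 16.5 and 12.0 CPM with LPS, and its groups overlapped. Neither passed the test (P2ry6 -0.34 ± 0.17, edgeR adjusted p = 0.119; P2ry2 -0.41 ± 0.21, edgeR adjusted p = 0.124). Both were called lower with upper-quartile factors (-0.47 and -0.54, adjusted p = 0.0293 and 0.0411) and with library sizes that leave out the ribosomal rows (-0.78 and -0.85, adjusted p = 0.000934 and 0.00205).

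Entpd1, the enzyme that removes ATP and ADP outside the cell, spans 40612366 to 40741602 on the plus strand of chromosome 19. Its level was 37.0, 23.7 and 42.4 CPM with FTY720 and 36.6, 38.1 and 42.1 CPM with LPS. The groups overlapped, with FTY720 replicate 2 lowest, and the gene did not pass the test (0.16 ± 0.18, edgeR adjusted p = 0.499; -0.28 to 0.35 over the alternatives, called under 0 of 17).

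The adenosine receptors were scarce, and none of the 3 was tested in the filtered analysis. Adora2a, a receptor that raises cyclic AMP, had 0, 1 and 0 reads with FTY720 and 4, 7 and 13 reads with LPS. The ratio of summed reads per scaled library size was 34.9 (95% counting interval 5.69 to 1440). Adora2b, its lower-affinity relative, had 7, 2 and 4 reads and then 19, 8 and 8 reads, a ratio of 3.91 (2.02 to 8.06). Adora3, which lowers cyclic AMP, had 1, 0 and 0 reads and then 2, 1 and 2 reads, a ratio of 7.27 whose interval of 0.814 to 344 includes no change. Every LPS library lay above every FTY720 library for Adora2a and Adora2b, while for Adora3 the gap was that between 0.334 and 0.423 CPM, each worth 1 read. Per 1000 microglia marker reads Adora2a still separated (exact permutation p = 0.1, adjusted p = 0.22). Adora2b did not, at 1.18, 0.334 and 0.438 with FTY720 and 2.36, 1.09 and 1.17 with LPS (exact permutation p = 0.3, adjusted p = 0.471), and the groups of Adora3 overlapped as well. Per 1000 Csf1r reads all 3 genes separated, Adora3 by the gap from 1.09 to 1.62, each worth 1 read. Of all tested genes 54% separated in CPM, and the share per Csf1r read was not computed. The reads carry no molecular identifiers, and the intervals hold counting error alone. When the low-count filter was dropped, edgeR called Adora2a (4.62 ± 0.88, adjusted p = 2.27e-06) and Adora2b (1.90 ± 0.48, adjusted p = 0.00068) higher, and Adora3 was not called (adjusted p = 0.244). The first of these fold changes depends on the prior count, since Adora2a had reads in 1 of the 3 FTY720 libraries. The exons of Adora3 share 105 bases with Tmigd3 on the same strand, so its few reads cannot be assigned with certainty.

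Scaling moved the listed genes together with all others. The median log2 fold change was -0.18 over the 7 tested and -0.04 over all genes. The split of all calls depended on scaling: 50.7% of them were higher with TMM factors, 38.8% with upper-quartile factors, 22.2% with total gene reads alone and 17.7% when the ribosomal rows were left out of the library size. The median over all genes under those last 3 scalings was -0.17, -0.35 and -0.49. Relative to each setting's median, P2rx7 stood at -2.08 to -1.86, P2rx4 at -0.60 to -0.05 and P2ry12 at 0.56 to 1.01 over the alternatives.

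Per length the order of the 10 genes changed mainly through P2rx7. On the scale of CPM per kilobase of annotated exon, the levels with FTY720 were 61.4 ± 3.43 for P2rx4, 16.2 ± 0.81 for P2ry6, 11.4 ± 1.07 for P2rx7, 7.91 ± 2.21 for Entpd1 and 5.65 ± 0.669 for P2ry2 (SD, n = 3). P2ry12 (2.5 ± 0.544), P2ry13 (1.33 ± 0.357) and Adora2b (0.713 ± 0.485) followed, and Adora3 and Adora2a stayed at or under 0.132 in every library. Entpd1 and P2ry2 overlapped in that order, as did P2ry13 and Adora2b, and Adora3 and Adora2a. With LPS the order began with P2rx4 (54.4 ± 4.47), P2ry6 (12.6 ± 2.39) and Entpd1 (8.95 ± 0.653). P2ry2 (4.28 ± 0.788) and P2ry12 (4.25 ± 1.12) overlapped, and P2rx7 (2.81 ± 0.399) stood sixth, overlapping with Adora2b (2.62 ± 1.07). P2ry13 (1.55 ± 0.900) overlapped with Adora2b above it and Adora2a (1.41 ± 0.993) below it, and Adora3 was last (0.287 ± 0.115). Exon lengths are those of GENCODE M21, which may differ from the models behind the counts.

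The 10 genes summed to 298 to 347 CPM per library with FTY720 (894 to 1472 reads) and to 245 to 276 CPM with LPS (552 to 658 reads). Of these reads P2rx7 made up 20.6%, 18.8% and 18.9% and then 5.62%, 5.53% and 6.52%. P2rx4 made up 51.3% ± 2.07 and 55.8% ± 1.25, and Entpd1 10.5% ± 2.27 and 14.8% ± 0.51 (SD, n = 3). P2ry12 took 1.87% ± 0.277 and 3.94% ± 0.975, Adora2a 0.0373% ± 0.0646 and 1.36% ± 0.900, and Adora2b 0.404% ± 0.272 and 1.87% ± 0.889. Shares of a single total are tied, so a smaller P2rx7 share leaves larger shares to the other genes without a rise in their levels. In mean CPM P2rx4 stood at 166 with FTY720 and 147 with LPS.

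Another 35 genes of nucleotide signalling, in 3 lists chosen by function, were read from the same fit. Over all tested genes 23.3% were called higher and 22.7% lower, the shares to set beside the counts of each list. With so few genes tested in each list, the counts are no result about the lists. Of 9 other nucleotide and adenosine receptors 1 was tested, and it was higher: P2ry1, a further ADP receptor, went from 9.01, 8.35 and 7.77 CPM to 22.8, 19.5 and 15.0 CPM (log2 fold change 1.21 ± 0.23, edgeR adjusted p = 0.000185). Its groups did not overlap, and the call held under all 17 alternatives (0.77 to 1.39). Per 1000 Csf1r reads P2ry1 stood at 31.7 ± 9.32 and 78.9 ± 25.6 without overlap, and per 1000 microglia marker reads the groups overlapped. P2ry14, the UDP-glucose receptor, had 6 reads in each group. Adora1, the remaining adenosine receptor, named after its counts were seen, had 24 reads with FTY720 and 4 with LPS (ratio 0.242, 95% counting interval 0.0611 to 0.705). Without the low-count filter edgeR called Adora1 lower (-2.0 ± 0.73, adjusted p = 0.028). That fit also called the enzyme gene Entpd8 higher (4.36 ± 1.67, edgeR adjusted p = 0.0391). Entpd8, also named after its counts were seen, had 0 reads with FTY720 and 6 with LPS, and its groups overlapped.

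Of 14 enzymes that break down or use nucleotides and adenosine, 7 were tested, 2 were higher and 0 lower (median log2 fold change 0.37). Pnp, which splits purine nucleosides such as inosine, rose from 21.7, 22.0 and 26.6 CPM to 222, 243 and 283 CPM, 10.5-fold (3.39 ± 0.14, edgeR adjusted p = 2.6e-15). Its near-identical copy Pnp2 had 6 reads and then 26, and because reads shared between such copies can be lost, the level of each is uncertain. Adk, which turns adenosine back into AMP inside the cell, went from 13.3, 13.4 and 20.7 CPM to 26.5, 31.3 and 25.5 CPM (0.78 ± 0.20, edgeR adjusted p = 0.00321). It was not called with total gene reads alone (0.44, adjusted p = 0.262) or when the ribosomal rows were left out of the library size (0.35, adjusted p = 0.146). Nt5e, which makes adenosine from AMP, had 18 reads with FTY720 and 7 with LPS (ratio 0.565, counting interval 0.200 to 1.42) and was not tested.

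Of 12 genes for ATP release and nucleoside transport 4 were tested, 0 were higher and 1 lower (median -0.25). Slc29a3, a nucleoside transporter of lysosomes, fell from 29.0, 35.7 and 19.1 CPM to 14.9, 16.5 and 15.5 CPM (-0.81 ± 0.22, edgeR adjusted p = 0.00483). The highest FTY720 library was replicate 2, without which the value was -0.57 (adjusted p = 0.0414), and the lowest was replicate 3, without which it was -1.05 (adjusted p = 1.25e-05).

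**Figure D3:**
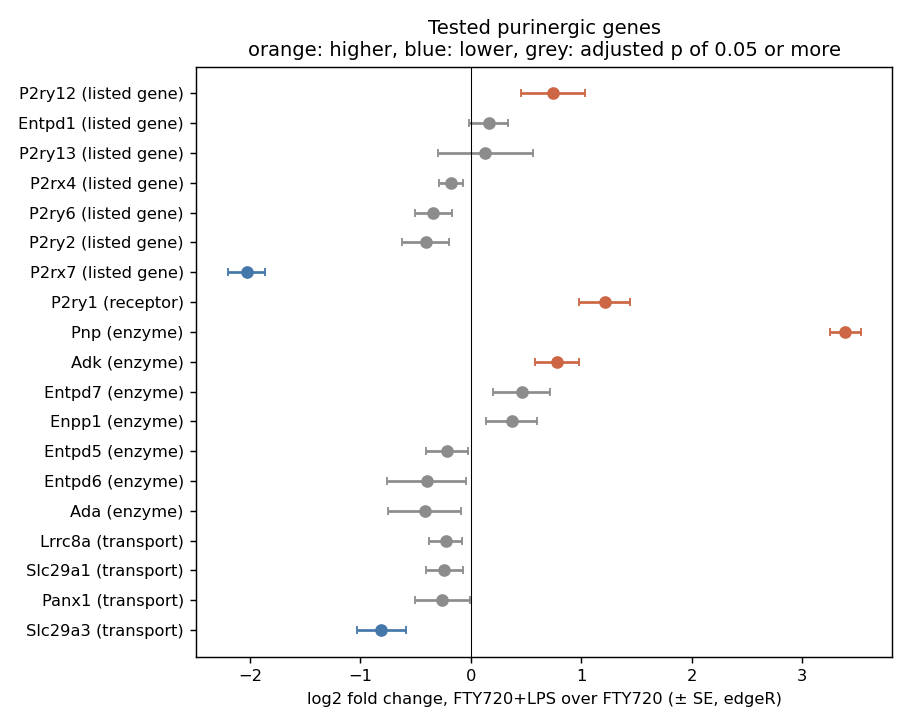
Log2 fold change (FTY720 with LPS over FTY720) with its SE for each tested gene of the 10 listed and of the 3 further lists, from edgeR. Orange marks genes called higher, blue lower, grey not called. P2rx7 lies at -2.03 and Slc29a3 at -0.81 on the lower side, and Pnp at 3.39, P2ry1 at 1.21, Adk at 0.78 and P2ry12 at 0.74 on the higher side.

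**Figure D4:**
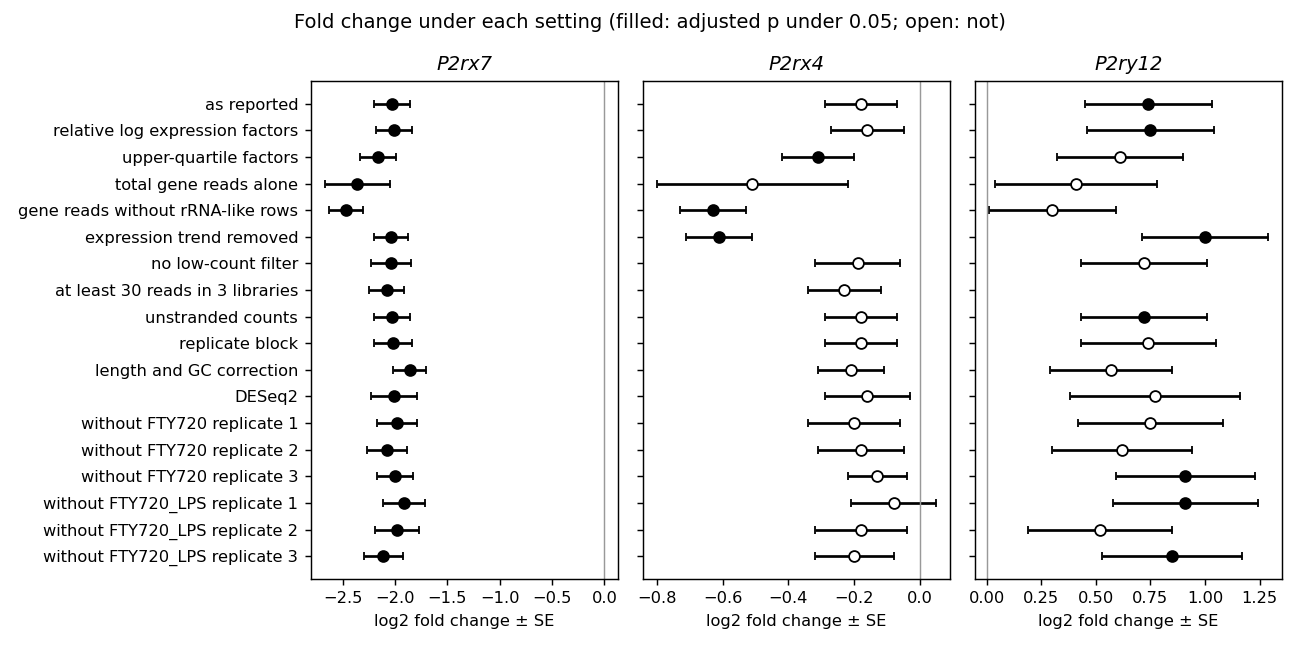
Log2 fold change with its SE for P2rx7, P2rx4 and P2ry12 as reported and under each alternative setting, filled where the adjusted p was under 0.05. P2rx7 is filled in every row, P2rx4 in 3 and P2ry12 in 7 of its 17 rows including the reported fit; P2ry12 was not tested when at least 30 reads in 3 libraries were required.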

How the data were processed

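For each library the authors deposited raw counts of reads by gene symbol, split by strand as STAR writes them. STAR 2.5.1, Trimmomatic 0.33, CASAVA 1.8.2, DESeq2 and build mm10 appear in the submitters' processing notes. Settings and annotation: not given in the sources used here. Libraries were strand-specific and made after removal of ribosomal RNA, per the labels' protocols. The strand column that held 98.4% to 98.9% of gene reads was used. Rows that name no gene (24.4% to 27.0% unmapped, 7.69% to 8.15% multimapping, 42.2% to 44.5% outside exons and 0.0748% to 0.114% ambiguous reads of all listed) were left out.

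Counts were tested across all genes with edgeR 4.0.16 (R 4.3.3, quasi-likelihood test, TMM factors, filterByExpr with a minimum count of 10), which kept 10124 of 24411 genes. P-values were adjusted by Benjamini-Hochberg over them, with a threshold of 0.05. An SE is the absolute log2 fold change over the square root of F. A count of 0 allows up to 3 reads, or 0.706 to 1.50 CPM. The script was checked on simulated counts. Alternatives were other scalings, filters and strands, DESeq2 1.42.0, a replicate block, each library left out in turn and, added after seeing the data, a loess correction for length and GC content (known for 96.5% of tested genes). Library pairs within groups were compared with sampling noise, and none was counted as a duplicate. Chi-square per degree of freedom, with the ribosomal rows kept, was 9.12 to 57.7 with FTY720. With LPS it was 1.29 to 4.13, lowest and close to sampling noise for replicates 1 and 2. Whether those 2 libraries are technical repeats cannot be told from this value. All 10 listed genes, every called gene of the 3 pathway lists, Nt5e, P2ry1 and P2ry14 were named by rule. Pnp2 was added as the copy of Pnp, Adora1 and Entpd8 are said to be chosen later, and marker genes come from the marker lists. The genes and lists were chosen with earlier results of these data known. Positions and exon lengths are from GENCODE M21 (GRCm38, also called mm10), and sequences from RefSeq (GRCm38.p6).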

Additional observations from a re-analysis of the deposited data

How the results depend on the processing

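Over the 17 alternatives P2rx7, P2ry1, Pnp and Slc29a3 were called in the reported direction in each. The number of listed genes called higher (1) went to 0 with upper-quartile factors, total gene reads alone, library sizes without the ribosomal rows, at least 30 reads in 3 libraries (where P2ry12 was not tested), the replicate block, DESeq2 and the length and GC correction. It was 2 without the low-count filter, where Adora2a and Adora2b entered and P2ry12 lost its call (edgeR adjusted p = 0.0546). It was 0 to 1 when single libraries were left out. Of all tested genes, 7.57% to 26% were called higher in the settings that gave 0 with all libraries kept. The share was 12.2% without the low-count filter and 19.4% to 26.6% with a library left out. The number called lower (1) was 4 with upper-quartile factors, 4 without the ribosomal rows and 2 with the expression trend removed, where 29.3%, 49.5% and 19% of all tested genes were called lower. Over all genes, 766 were called higher with total gene reads alone and 1073 without the ribosomal rows, against 2362 as reported. Calls lower numbered 4981 without the ribosomal rows and 1529 with DESeq2, against 2297. The causes of these shifts were not tested. With the replicate number as a block 2292 genes were higher and 2171 lower, P2rx7 stood at -2.02 and P2ry12 lost its call (adjusted p = 0.0582). Same-numbered libraries did not deviate together (r = -0.02, -0.03 and -0.07). Deviations from a mean of 3 libraries are tied to one another, so this cannot tell whether such libraries share more than a number. Depth limits the adenosine receptors and P2ry13 most.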
